A study of Mus musculus with 11 samples.

Results

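Interferon-induced genes were followed in adventitia, the connective tissue that sheathes an artery, taken from the abdominal aorta of mice. The set held 36 genes, 26 best known as type I interferon targets (type I-type) and 10 best known as interferon gamma targets (gamma-type). A gene was measured where the platform annotation gave a probe set its symbol and no other, which held for 33 of the 36 genes, out of 12393 genes so represented on the array. These 33 genes had 47 probe sets in all, and 32 genes (22 type I-type and all 10 gamma-type) passed the filter on low signal. Most of these genes respond to both interferons to some degree, so the classes name the interferon each gene is best known for. Of the remaining genes, Mx2 had a probe set but did not pass the filter, Isg15 had only a probe set shared with Gm9706, and Ifi44 and Ddx58 had none of their own.

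Type I interferons (interferon alpha and beta) bind the receptor chains IFNAR1 and IFNAR2, and the kinases JAK1 and TYK2 then activate a complex, with STAT2 and IRF9 among its parts, that binds the interferon-stimulated response element. Interferon gamma, made chiefly by T cells and natural killer cells, binds IFNGR1 and IFNGR2, and JAK1 and JAK2 then act through factors that bind the gamma-activated site. Type I targets are largely antiviral proteins, and gamma targets include T cell-attracting chemokines and GTPases that act on vacuoles holding microbes.

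The study made 11 Affymetrix arrays from tissue cut with a laser microscope out of frozen aorta, all from male mice aged 78 weeks on standard chow. ATLO arrays (n = 4) came from Apoe-deficient mice (B6.129P2-Apoe<tm1Unc>/J), from adventitia inside the atherosclerotic lesion area with artery tertiary lymphoid organs, which are lymphocyte aggregates in the wall of diseased arteries. Outside-lesion arrays (n = 4) came from adventitia of the same strain away from lesions, and wild-type arrays (n = 3) came from adventitia of C57BL mice, whose titles carry the letters PNS, left unexplained by the labels. In both Apoe-deficient groups 200 sections of 10 micrometres were pooled for each sample, and the aorta had been taken out together with nearby lymph nodes, fat and connective tissue. Preparation differed too: RNA of both Apoe-deficient groups went through phenol/chloroform and the RNeasy Micro kit with 68 h of in vitro transcription, and wild-type RNA through the RNeasy Lipid Tissue kit with 24 h. Genotype and preparation therefore cannot be told apart in any comparison with wild type. No label says whether the samples of a group were separate animals, and p-values therefore measure the spread between arrays, which may be technical.

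The deposited values are linear signals, each array scaled to the same trimmed mean, with median signals of 151.5 to 191 per array. Apoe signal was 86.9 to 150.2 on ATLO arrays and 45.9 to 179.7 on outside-lesion arrays, against 11969.4 to 13164.3 on wild-type arrays, low in the groups that the labels give as Apoe-deficient. Leukocyte genes were higher in ATLO: the summed signal of Ptprc, Laptm5 and Coro1a was 19560 to 24020 on ATLO arrays, 3831 to 4875 on outside-lesion arrays and 2800 to 6454 on wild-type arrays. One wild-type array stood apart, replicate 2, whose leukocyte sum of 6454.5 compared with 2847.1 and 2800.1 on the other two, and whose signal of the B cell gene Ms4a1 was 2393.7 against 196 and 117.7. Among ATLO arrays, replicate 2 had the highest summed B cell signal, 13771.6 against 3357.8 to 8002.3 on the other three. Counts of calls in the comparisons that hold these 2 arrays are also given without them, with the members whose calls changed. The ratio of 3′ to 5′ actin signal, a sign of RNA quality, averaged 4.61 ± 2.71 on ATLO arrays, 8.71 ± 2.83 on outside-lesion arrays and 4.98 ± 0.683 on wild-type arrays (SD, n = 4, 4 and 3).

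ATLO adventitia had higher signals of most interferon-induced genes than outside-lesion adventitia of the same strain. Of 32 genes tested, 19 rose and none fell at an adjusted p under 0.05 (limma, Benjamini-Hochberg over all probe sets tested), the threshold behind every call below. Over all 9045 genes tested, 19.8% were called higher and 14.9% lower. Among gamma-type genes 9 of 10 rose, with a median log2 change of 0.83, and among type I-type genes 10 of 22 rose, with a median of 0.53, while the median over all genes was 0.105. Without Cxcl10, Irf1 and Gbp2, which are often listed under both interferons, 7 of 7 gamma-type genes rose. Every ATLO array lay above every outside-lesion array in 18 of the 32 genes, 8 gamma-type and 10 type I-type, as it did in 19.2% of all genes. With the actin ratio as a covariate 12 genes were called higher, 4 gamma-type and 8 type I-type. Of all 14988 probe sets tested 1290 were then called higher, in place of 2688. The share of probe sets called in either direction was 17% in place of 31.9%. The difference between the classes was not tested. In these bulk samples fewer cells of a type and less RNA per cell cannot be told apart.

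**Figure D1:**
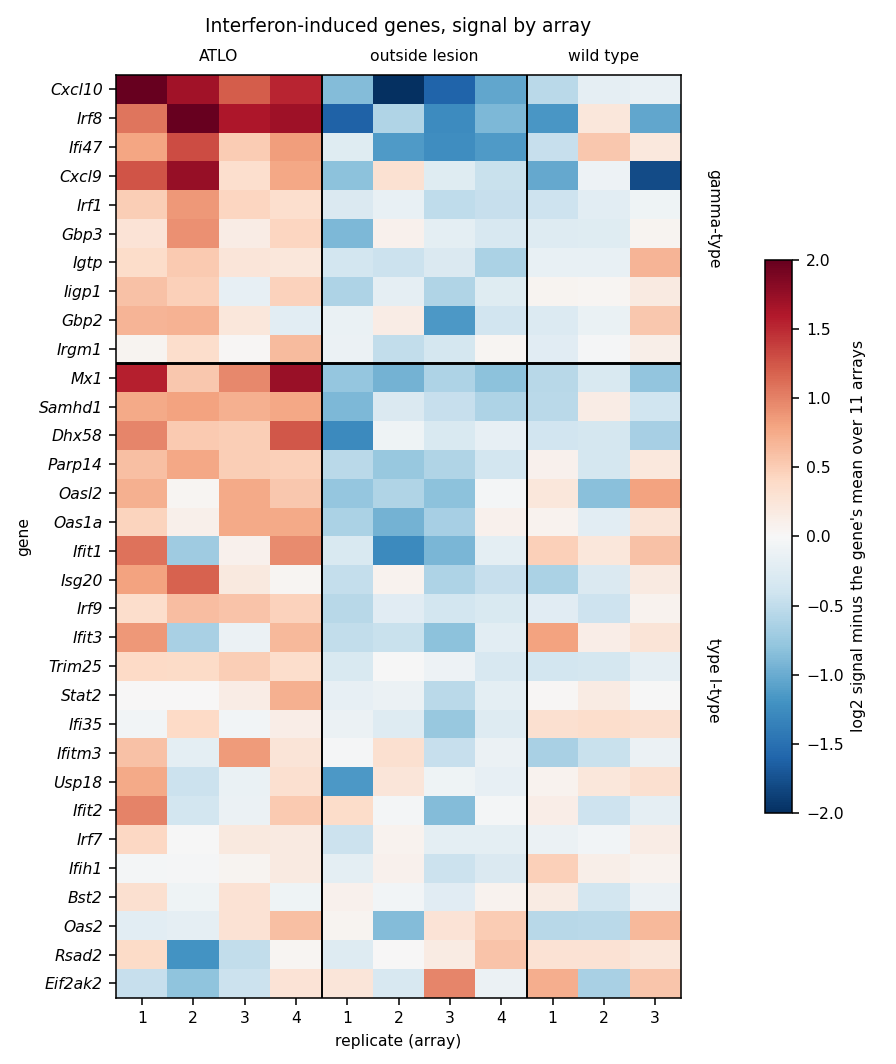
Log2 signal of each of the 32 tested genes on each of the 11 arrays, as the difference from the gene's own mean over all arrays (colour scale from -2 to 2, red higher, blue lower), with gamma-type genes above the line, type I-type genes under it, and both ordered by the change between ATLO and outside-lesion arrays. Cxcl10 and Irf8 were higher on all 4 ATLO arrays than on any other array, and Rsad2 and Eif2ak2 at the bottom were not.

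Both chemokines rose, and Cxcl10 had the largest change of any member in this comparison. Cxcl10, a chemokine that attracts CXCR3-bearing T cells, had signals of 617.1, 477.3, 347.4 and 432.4 on ATLO arrays, 81.8, 28.5, 49.5 and 72.7 on outside-lesion arrays, and 103.4, 132 and 134.8 on wild-type arrays. The lowest ATLO array was thus above the highest array of either other group, and outside-lesion arrays lay below all wild-type arrays. The log2 change was 3.02 ± 0.29 (SE) between ATLO and outside-lesion, an 8.09-fold difference (limma adjusted p = 1.81e-05), and outside-lesion replicate 2, below the signal floor of 35.1, makes this an understatement. Cxcl9, another ligand of CXCR3 and one that responds chiefly to interferon gamma, had 1080.9, 1505.8, 571.6 and 774.6 on ATLO arrays, 254.4, 558.7, 383 and 330.4 on outside-lesion arrays, and 220.8, 419.8 and 130 on wild-type arrays. Here ATLO replicate 3 was only just above outside-lesion replicate 2. Its log2 change was 1.33 ± 0.37 (limma adjusted p = 0.0138), and it was 0.67 ± 0.40 and not called (adjusted p = 0.279) with the actin ratio as a covariate.

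The sequence upstream of Cxcl10 holds the core of the interferon-stimulated response element (GAAA, any 2 bases, GAAA again), in the window of 250 bases before the transcript start in RefSeq, build GRCm38.p6. The same window upstream of Cxcl9 holds neither that core nor the gamma-activated site (TTC, any 3 bases, GAA), and no match says only that these letters are not in this window. These sequences are shown 5′ to 3′ on the strand of the gene to set a chemokine with the motif beside one without, with capitals for the motif: Cxcl10 at chr5:92349073-92349122 (minus strand), and the last 120 bases before the start of Cxcl9 at chr5:92328080-92328199 (minus strand).
Cxcl10: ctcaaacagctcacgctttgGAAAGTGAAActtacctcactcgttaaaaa
Cxcl9: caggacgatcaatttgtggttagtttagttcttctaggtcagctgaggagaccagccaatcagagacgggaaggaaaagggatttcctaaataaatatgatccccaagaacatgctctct

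Of the transcription factors, Irf8, Irf1 and Irf9 rose and Irf7 and Stat2 did not pass the test. Irf8, which is induced by interferon gamma but is also a lineage factor of macrophages, dendritic cells and B cells, had 1229.4, 2322.7, 1790.5 and 1894.1 on ATLO arrays, 190.4, 386.5, 245.4 and 313.5 on outside-lesion arrays, and 262, 687.2 and 284.3 on wild-type arrays. Every ATLO array was above every other array, and the highest wild-type value was that of replicate 2, the array with the high leukocyte sum. The log2 change of Irf8 between ATLO and outside-lesion was 2.69 ± 0.31 (limma adjusted p = 4.43e-05), and its other probe set gave 1.68 ± 0.34. The part of leukocyte number in this change was not tested.

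Irf1, a factor made early after interferon gamma, had 1465.8, 1895.6, 1400.7 and 1323.1 on ATLO arrays, 849, 945.2, 734.2 and 758.8 on outside-lesion arrays, and 784.6, 897.5 and 979.3 on wild-type arrays. The ATLO arrays were separated from both other groups, which overlapped each other, and the log2 change against outside-lesion was 0.88 ± 0.15 (limma adjusted p = 6.18e-04). Irf9, the DNA-binding part of the type I complex, had 431.4, 518.4, 498.6 and 461.8 on ATLO arrays, 230.4, 289.3, 260.1 and 273.8 on outside-lesion arrays, and 289.4, 254.3 and 355.8 on wild-type arrays. It too was higher on every ATLO array than elsewhere (0.86 ± 0.16 against outside-lesion, limma adjusted p = 0.00117). For Irf7, the factor that amplifies interferon alpha, the change was 0.38 ± 0.17 (adjusted p = 0.0946), and for Stat2 it was 0.47 ± 0.24 (adjusted p = 0.161).

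Both interferon gamma-responsive factors carry a gamma-activated site in at least one RefSeq promoter window, shown here because these windows hold no response element core. Irf8 holds 2 such sites (chr8:120736167-120736233, plus strand) and Irf1 holds 1 (chr11:53769904-53769952, plus strand), while a second window of each gene, at another start, holds none.
Irf8: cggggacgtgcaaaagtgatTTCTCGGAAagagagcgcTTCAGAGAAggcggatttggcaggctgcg
Irf1: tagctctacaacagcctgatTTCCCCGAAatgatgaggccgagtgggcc

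The gamma-inducible GTPases, guanylate-binding proteins and immunity-related GTPases that attack vacuoles of intracellular microbes, rose in 5 of 6 cases against outside-lesion, where 19.8% of all genes were called higher. With the actin ratio as a covariate 4 of these 5 were not called, namely Gbp3 (0.40, adjusted p = 0.304), Igtp (0.76, adjusted p = 0.0513), Irgm1 (0.34, adjusted p = 0.344) and Iigp1 (0.46, adjusted p = 0.122), all by limma. Ifi47 changed most, with 1503.5, 2150.1, 1237.7 and 1542.1 on ATLO arrays, 733.1, 397.1, 368.6 and 394.8 on outside-lesion arrays, and 629.6, 1262.8 and 1005.8 on wild-type arrays. ATLO and outside-lesion arrays did not overlap, and wild-type replicate 2 was above the lowest ATLO array. The log2 change was 1.80 ± 0.26 (limma adjusted p = 1.94e-04). Gbp3, Igtp, Iigp1 and Irgm1 rose by 0.50 to 0.77 on the log2 scale. Of these 4, Irgm1 was the only one whose ATLO and outside-lesion arrays overlapped. Its call (limma adjusted p = 0.0484) was lost on leaving out any of 8 arrays, with adjusted p-values between 0.0535 and 0.149. The call of Gbp3 was lost without ATLO replicate 2 (0.61 ± 0.22, limma adjusted p = 0.0578) and without outside-lesion replicate 1 (0.58 ± 0.20, adjusted p = 0.051).

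Gbp2 had the largest uncalled change. Its representing probe set had 1265, 1270.7, 917.5 and 682.9 on ATLO arrays, 717.8, 870, 356.2 and 603.3 on outside-lesion arrays, and 654.4, 714.8 and 1148.1 on wild-type arrays. All groups overlapped, and the change against outside-lesion was 0.73 ± 0.29 (limma adjusted p = 0.0683). Its second probe set was called (0.89 ± 0.30, adjusted p = 0.0361). Gbp2 and Gbp3 carry the response element core, and both are shown because their calls differed: Gbp2 (chr3:142620584-142620633, plus strand) and Gbp3 (chr3:142559979-142560034, plus strand). In both the core lies on the opposite strand and so reads TTTC, any 2 bases, TTTC. In Gbp3 a pair of cores overlap, and a second RefSeq window of Gbp3, at another start, holds neither motif.
Gbp2: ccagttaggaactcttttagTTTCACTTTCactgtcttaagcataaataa
Gbp3: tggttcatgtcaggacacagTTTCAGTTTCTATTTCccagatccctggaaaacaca

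**Figure D2:**
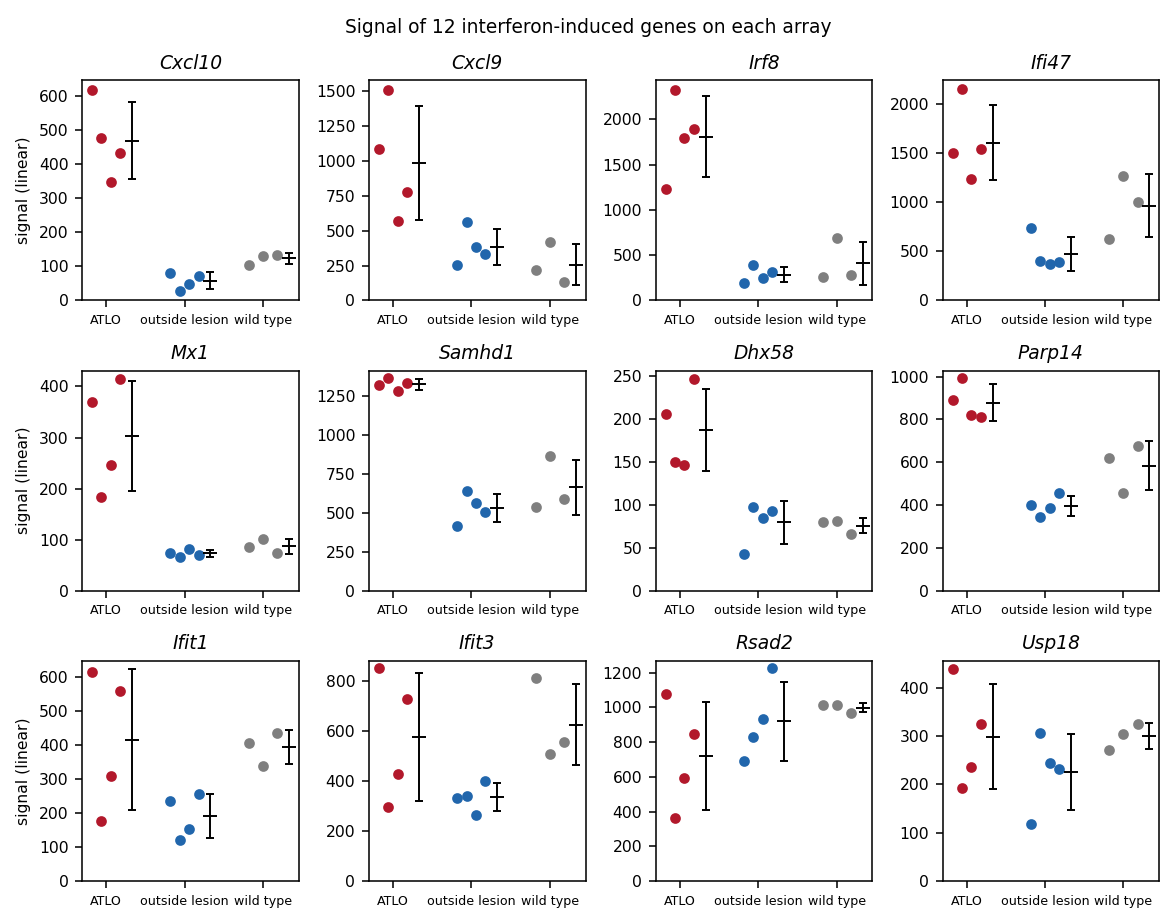
Linear signal of 12 interferon-induced genes on each array, one point an array, with the mean and SD of each group to the right of its points (ATLO, n = 4, outside lesion, n = 4, wild type, n = 3; every axis starts at 0). Mx1 and Samhd1 are high on all 4 ATLO arrays only, Ifi47 is high in ATLO and intermediate in wild type, and ATLO replicate 2 is the lowest ATLO point of Ifit1, Ifit3, Rsad2 and Usp18.

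Among type I-type genes the largest rise was that of Mx1, a GTPase that blocks influenza virus and of which most laboratory mouse strains carry a defective allele. Its signals were 370.1, 183, 245.3 and 413.8 on ATLO arrays, 73.3, 65.4, 82.2 and 70.8 on outside-lesion arrays, and 85.9, 101.4 and 72.9 on wild-type arrays. The lowest ATLO array, replicate 2, was still above every array of the other groups, and the log2 change against outside-lesion was 1.99 ± 0.28, a 3.96-fold difference (limma adjusted p = 1.51e-04). Mx2 lay near the background, with 18.9, 9.1, 17.8 and 118.4 on ATLO arrays, 85.3, 15.2, 19.9 and 20.2 on outside-lesion arrays, and 22.1, 25.8 and 22 on wild-type arrays, and was not tested.

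Samhd1, a nucleotide triphosphohydrolase that starves retroviruses of substrate, was the most even member in ATLO. It had 1320.5, 1366.5, 1279.8 and 1332.4 on ATLO arrays, 418.1, 637.7, 563.4 and 507.2 on outside-lesion arrays, and 537.6, 866.4 and 590.9 on wild-type arrays. No array of the other groups reached the ATLO range, and the log2 change against outside-lesion was 1.33 ± 0.17 (limma adjusted p = 9.12e-05). Its 4 probe sets disagreed in this comparison: another gave 1.39 ± 0.16 and was called, and those with 0.19 ± 0.51 and 0.13 ± 0.27 were not. Against wild type all 4 were called. In outside-lesion against wild type the 2 disagreeing probe sets gave 1.41 ± 0.55 and 1.06 ± 0.29, not called (limma adjusted p = 0.156 and 0.0647). The representing probe set gave -0.31 ± 0.19 there.

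Dhx58, the RNA sensor LGP2, had 205.3, 150.4, 146.8 and 246.2 on ATLO arrays, 43, 97.9, 84.5 and 92.7 on outside-lesion arrays, and 79.7, 81.4 and 65.9 on wild-type arrays. ATLO was separated from both groups, which overlapped each other (1.27 ± 0.31 against outside-lesion, limma adjusted p = 0.00696). Parp14, an ADP-ribosyltransferase, had 889.7, 996.1, 821.4 and 810.1 on ATLO arrays, 402.1, 344.5, 386.8 and 455.8 on outside-lesion arrays, and 620.4, 456.5 and 676.7 on wild-type arrays. The ATLO arrays lay above all others, wild-type replicate 2 was only just above the highest outside-lesion array, and the change was 1.15 ± 0.16 against outside-lesion (limma adjusted p = 1.41e-04).

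Of the other RNA sensors and double-stranded RNA-activated enzymes, the oligoadenylate synthetase genes Oas1a (1.05 ± 0.225, limma adjusted p = 0.00302) and Oasl2 (1.08 ± 0.31, limma adjusted p = 0.0182) rose. Not called were Oas2, which makes the same second messenger (0.14 ± 0.33, adjusted p = 0.787), and Ifih1, the sensor MDA5 (0.25 ± 0.15, adjusted p = 0.246). Eif2ak2, the kinase PKR that halts translation, had 82.3, 64.5, 84 and 137.3 on ATLO arrays, 134.4, 90.6, 222.9 and 104.2 on outside-lesion arrays, and 186.9, 72.2 and 165.7 on wild-type arrays. Its groups overlapped, with a change of -0.55 ± 0.38 (adjusted p = 0.296). Together with Rsad2 it was one of the 2 tested genes whose change between ATLO and outside-lesion was negative.

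The proteins of the Ifit genes bind viral RNA, and these genes are standard markers of type I interferon. Of these genes 1 of 3 rose against outside-lesion, where 19.8% of all genes were called higher. Ifit1 had 615.4, 177, 308.9 and 558.6 on ATLO arrays, 233.9, 120.1, 153.8 and 254.8 on outside-lesion arrays, and 405, 338 and 435.5 on wild-type arrays. ATLO replicates 1 and 4 were above all other arrays and replicate 2 was inside the outside-lesion range. The call (1.02 ± 0.36, limma adjusted p = 0.0438) was lost on leaving out any of 8 arrays, with adjusted p-values between 0.0529 and 0.129. Ifit3 had 851, 297.1, 427.7 and 728.1 on ATLO arrays, 331.7, 340.1, 264 and 400.4 on outside-lesion arrays, and 810.6, 508.4 and 557.5 on wild-type arrays. Replicates 1 and 4 were again the highest within ATLO, the outside-lesion arrays were below all wild-type arrays, and the ATLO change of 0.68 ± 0.29 against outside-lesion was not called (limma adjusted p = 0.0946). It passed without ATLO replicate 2 (0.96 ± 0.25, adjusted p = 0.0145). Ifit2 had 453.1, 177.6, 209.2 and 327.3 on ATLO arrays, 295.3, 222.1, 124.8 and 221.1 on outside-lesion arrays, and 251, 171.5 and 200.7 on wild-type arrays, with overlap and a change of 0.40 ± 0.32 (adjusted p = 0.368). The Ifit genes have close copies in the mouse genome, and cross-hybridisation was not tested.

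Ifit1 and Ifit3 each hold 2 response element cores within 156 bases of their starts, on the strand opposite to the gene, and are shown as type I-type genes with repeated cores: Ifit1 at chr19:34640765-34640833 (plus strand) and Ifit3 at chr19:34583353-34583436 (plus strand).
Ifit1: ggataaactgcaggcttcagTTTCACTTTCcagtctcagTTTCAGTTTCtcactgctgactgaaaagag
Ifit3: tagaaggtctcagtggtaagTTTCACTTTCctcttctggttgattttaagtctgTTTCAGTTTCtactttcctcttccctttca

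Among the remaining effectors, Isg20, an exonuclease acting on RNA, had 1036, 1348.8, 681.9 and 609.2 on ATLO arrays, 428.2, 619.8, 387.6 and 433.3 on outside-lesion arrays, and 383.4, 484.3 and 669.8 on wild-type arrays. In each comparison the lowest ATLO array lay below the highest array of the other group, and Isg20 rose against outside-lesion (0.93 ± 0.26, limma adjusted p = 0.015). With the actin ratio as a covariate Isg20 was not called (0.53 ± 0.30, limma adjusted p = 0.256). Trim25, the ubiquitin ligase that activates RIG-I, had 1330.6, 1323.1, 1428.6 and 1290.4 on ATLO arrays, 823.5, 1004, 948.6 and 812.3 on outside-lesion arrays, and 789.5, 796.7 and 899 on wild-type arrays. ATLO arrays were well separated from the rest (0.59 ± 0.125, limma adjusted p = 0.00296), and the second tested probe set of Trim25 gave 0.41 ± 0.14 (adjusted p = 0.0428) here and 0.35 ± 0.15 (adjusted p = 0.104), not called, against wild type.

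Rsad2, the antiviral enzyme viperin, had a negative change that was not called. Its signals were 1075.8, 361.2, 591.4 and 849.4 on ATLO arrays, 691.4, 831.4, 932 and 1225.5 on outside-lesion arrays, and 1013.7, 1014.8 and 968.5 on wild-type arrays. The ATLO arrays overlapped the outside-lesion arrays, and 3 of the 4 lay below all wild-type arrays, and neither the change of -0.44 ± 0.28 (limma adjusted p = 0.261) was called nor those of its other probe sets (-0.14 ± 0.27 and -0.08 ± 0.28). Usp18, which removes ISG15 and damps the type I receptor, had 439.6, 193.2, 235.8 and 325.3 on ATLO arrays, 117.5, 305.9, 244.3 and 232.2 on outside-lesion arrays, and 270.9, 304.4 and 325 on wild-type arrays. Its groups overlapped (0.42 ± 0.30, adjusted p = 0.324). Ifi35 (0.45 ± 0.17, adjusted p = 0.0611), Ifitm3, which blocks virus entry (0.45 ± 0.24, adjusted p = 0.172), and Bst2, the tether of budding virions (0.14 ± 0.17, adjusted p = 0.562), were not called either.

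**Figure D3:**
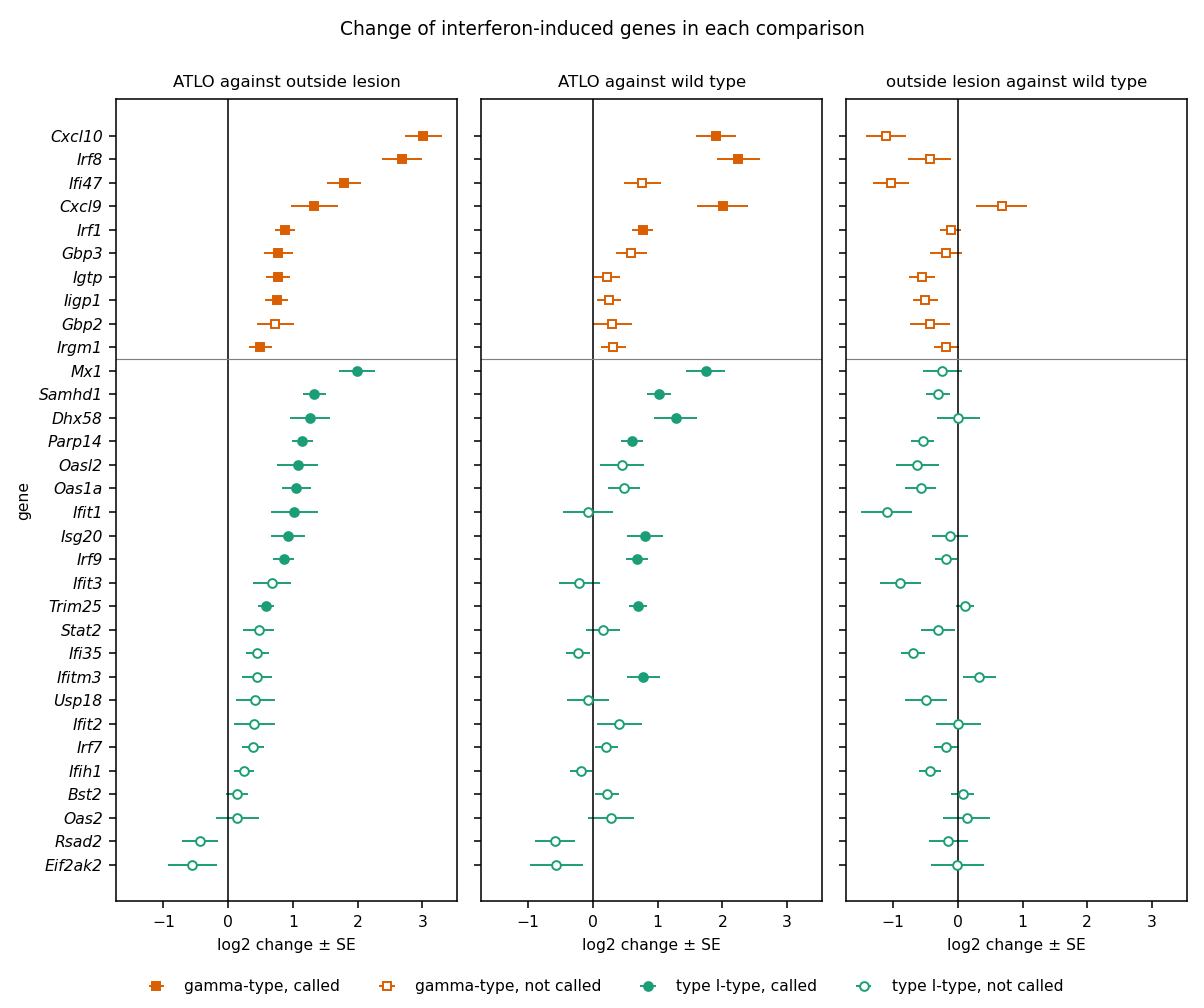
Log2 change ± SE of each of the 32 tested genes in the 3 comparisons, from the limma fit to all 11 arrays, with filled symbols for called genes, squares for gamma-type and circles for type I-type. In the first panel 19 symbols are filled, in the second 12 and in the third 0, and most points of the third panel lie left of 0.

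Against wild-type adventitia, chemokines, transcription factors and antiviral effectors were again among the genes higher in ATLO. Of 32 genes tested 12 rose and none fell, 4 of 10 gamma-type and 8 of 22 type I-type, while 13.4% of all genes were called higher and 14.1% lower. The median log2 change was 0.68 for gamma-type genes and 0.34 for type I-type genes, with -0.05 over all genes. Every ATLO array lay above every wild-type array in 11 of the 32 genes, as in 17.6% of all genes. Without wild-type replicate 2, the array with high leukocyte markers, 9 genes were called, 5 gamma-type and 4 type I-type: Irf9, Isg20, Ifitm3 and Parp14 lost their calls (adjusted p = 0.0579, 0.11, 0.0966 and 0.104), and Ifi47 gained one (adjusted p = 0.0384). Their log2 changes in that fit, which holds only 2 wild-type arrays, were 0.57 for Irf9 (0.68 with all arrays), 0.78 for Isg20 (0.81), 0.76 for Ifitm3 (0.78), 0.44 for Parp14 (0.60) and 0.99 for Ifi47 (0.76). Of the 7 gamma-type genes other than Cxcl10, Irf1 and Gbp2, 2 rose.

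The gamma-type genes called against wild type were Irf8 (2.25 ± 0.34, limma adjusted p = 5.29e-04), Cxcl9 (2.01 ± 0.40, limma adjusted p = 0.00292), Cxcl10 (1.90 ± 0.31, limma adjusted p = 9.43e-04) and Irf1 (0.77 ± 0.16, limma adjusted p = 0.00425). None of the 6 gamma-inducible GTPases was called, with changes of 0.21 to 0.76 and the largest for Ifi47 (0.76 ± 0.28, adjusted p = 0.0608) and Gbp3 (0.59 ± 0.24, adjusted p = 0.0874). The second probe set of Iigp1 was called in this comparison (0.65 ± 0.22, adjusted p = 0.0394), unlike the representing one (0.25 ± 0.19, adjusted p = 0.352). Leading type I-type genes were Mx1 (1.74 ± 0.30, limma adjusted p = 0.00128), Dhx58 (1.28 ± 0.34, limma adjusted p = 0.0134), Samhd1 (1.03 ± 0.19, limma adjusted p = 0.00181) and Isg20 (0.81 ± 0.28, limma adjusted p = 0.0481). That call of Isg20 was lost under 7 other settings and in 7 of the fits that left out 1 array (limma adjusted p of 0.0506 to 0.188). The others called were Irf9, Trim25, Parp14 and Ifitm3, at 0.60 to 0.78, and this comparison shares its ATLO arrays with the one against outside-lesion. Of the 3 Ifit genes none was called, and Ifit1 (-0.08 ± 0.39) and Ifit3 (-0.21 ± 0.32) had mean ATLO signals near those of wild type.

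Outside-lesion and wild-type adventitia gave no call for any member in either direction by limma, with 1.40% of all genes called higher and 1.67% lower, and leaving out wild-type replicate 2 gave none either. Other settings did call members lower by limma: array weights called 3 (Ifi35, Cxcl10 and Ifi47), while the replicate block (Ifit1), the stricter filter (Ifi35), leaving out ATLO replicate 2 (Ifi35) and leaving out outside-lesion replicate 1 (Ifi47) called 1 each. At an unadjusted p under 0.05, 0 of 32 genes were higher and 10 (31.2%) lower, against 7.94% and 14.1% of all genes. The 10 genes were Ifit1, Ifit3, Oas1a, Ifih1, Ifi35 and Parp14 of the type I-type class and Cxcl10, Igtp, Iigp1 and Ifi47 of the gamma-type class. Every outside-lesion array lay below every wild-type array in 8 of the 32 genes, as in 13.4% of all genes. The median log2 change of the 32 genes was -0.275, with -0.115 over all genes. Of the 32 changes 25 were below 0 and 7 above, and over all genes 3465 of 9045 were above 0. The largest changes among the members were those of Cxcl10 (-1.11 ± 0.31, limma adjusted p = 0.0683) and Ifit1 (-1.10 ± 0.39, adjusted p = 0.129). With array medians set equal, the median over all probe sets turned to 0.06 and that of the members was -0.10. The preparation of wild-type RNA differed from that of outside-lesion RNA, and the outside-lesion arrays had the higher actin ratio. Of fibroblast markers 2 of 5 were called lower, Pdgfra (-1.28 ± 0.26) and Lum (-1.20 ± 0.30) (limma adjusted p = 0.0275 and 0.0482). The 4 adipocyte markers tested had changes of 0.26 to 1.01, none called. The part of any of these in the changes of the members was not tested.

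The arrays of a group also differed in which class was high. Over the 22 type I-type genes the mean log2 signal was 9.17, 8.69, 8.93 and 9.16 on ATLO arrays, 8.27, 8.36, 8.27 and 8.49 on outside-lesion arrays, and 8.65, 8.48 and 8.76 on wild-type arrays. All ATLO arrays but replicate 2 lay above every wild-type array by this measure. Over the 10 gamma-type genes the mean was 10.045, 10.34, 9.74 and 9.95 on ATLO arrays, 8.68, 8.83, 8.54 and 8.73 on outside-lesion arrays, and 8.84, 9.26 and 9.155 on wild-type arrays. Here the 4 ATLO arrays lay above all others, with replicate 2 the highest.

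ATLO replicate 2 was the lowest ATLO array in 12 of 22 type I-type genes, among them all 3 Ifit genes, Mx1, Oas1a, Oasl2, Usp18 and Rsad2, and the highest in 7 of 10 gamma-type genes. Probe sets of different genes cannot be set against each other in level, but the difference of the class means can be followed across arrays. The gamma-type minus type I-type mean was 0.88, 1.65, 0.81 and 0.79 on ATLO arrays, 0.42, 0.47, 0.27 and 0.24 on outside-lesion arrays, and 0.19, 0.78 and 0.40 on wild-type arrays. The largest value of each group belonged to its replicate 2. In ATLO and wild type that replicate also had the highest B cell sum of its group, and in outside-lesion it did not (778.8, with 484.3 to 1446.6 over the group). Replicate 2 also had the lowest 3′ to 5′ actin ratio of each group, 1.71 in ATLO, 6.22 in outside-lesion and 4.19 in wild type. Whether the class difference follows from cell content or RNA quality was not tested. Without ATLO replicate 2, 12 type I-type and 7 gamma-type genes were called against outside-lesion, and 7 and 4 against wild type. Against outside-lesion Gbp3 and Irgm1 lost their calls in that fit, and Ifit3 and Ifitm3 gained them. Against wild type Isg20 lost its call.

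**Figure D4:**
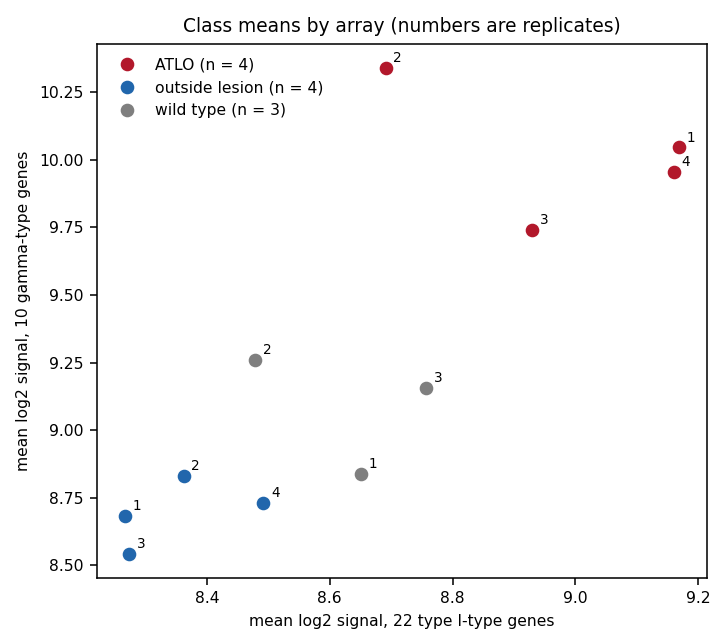
Mean log2 signal of the 22 type I-type genes (horizontal axis) and of the 10 gamma-type genes (vertical axis) on each of the 11 arrays, with replicate numbers beside the points. ATLO points lie highest on the vertical axis, between 9.74 and 10.34, and ATLO replicate 2 stands left of the other ATLO points.

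The genes upstream of the members were read from a list drawn up for this pathway with earlier results of these data known. Ifng was near the background, at 34, 48.8, 19.8 and 62 on ATLO arrays, 1, 3.6, 14.2 and 3.5 on outside-lesion arrays, and 26.2, 6 and 25.1 on wild-type arrays, and was not tested. All ATLO arrays were above all outside-lesion arrays, but most of these signals lie under or near the floor of 35.1. Ifnb1 (means of 42.8, 58.0 and 75.7 in ATLO, outside-lesion and wild type) was likewise not tested. Nor were Ifna2 (means of 38.2, 75.6 and 113, in the same order) and Ifna4 (under the floor on all arrays). Of 11 ligands and sensors of interferon induction tested, 7 rose against outside-lesion, where 19.8% of all genes did. Against wild type 6 rose, where 13.4% of all genes did. No interferon gene was among them. Ifna1, the only one tested, was not called (0.32 ± 0.48 and -0.58 ± 0.52, limma adjusted p = 0.655 and 0.439). Zbp1, a sensor of Z-form nucleic acid, rose by 2.48 ± 0.36 and 2.69 ± 0.39, and Irf5, a factor acting after Toll-like receptors, by 1.37 ± 0.17 and 1.38 ± 0.18. Ikbke, a kinase that activates IRF3, had 180.3, 199, 182.8 and 198.6 on ATLO arrays and was under the floor on all outside-lesion and wild-type arrays. It was thus at least 5.41-fold higher in both comparisons. It passed the filter through its ATLO arrays alone, and both counts include it.

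Of 10 receptor and signalling genes tested, 6 rose against outside-lesion and 4 against wild type, beside the same shares of 19.8% and 13.4% over all genes. Socs3, a feedback inhibitor of cytokine signalling, rose most, by 2.33 ± 0.28 and 3.57 ± 0.30, and was also the 1 gene of this list called higher in outside-lesion than in wild type (1.24 ± 0.30, limma adjusted p = 0.0417). Pias1, a SUMO ligase that damps interferon signalling, was lower in outside-lesion than in wild type (-0.85 ± 0.16, limma adjusted p = 0.0225). Jak2 rose by 0.95 ± 0.17 against outside-lesion and 0.88 ± 0.18 against wild type, and Il10rb, a receptor chain shared by interferon lambda and interleukin 10, by 0.92 ± 0.14 and 1.04 ± 0.15. Of the receptor chains of both interferons none was called against outside-lesion, with log2 differences of 0.345 ± 0.21 for Ifnar1, 0.03 ± 0.14 for Ifnar2, 0.17 ± 0.17 for Ifngr1 and -0.11 ± 0.24 for Ifngr2. Against wild type Ifngr1 was called (0.83 ± 0.185, limma adjusted p = 0.00575) and the other 3 were not. Socs1 did not pass the filter.

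Of 23 further interferon-induced genes tested, 14 rose against outside-lesion and 10 against wild type, where 19.8% and 13.4% of all genes were called higher. None was called in outside-lesion against wild type, where limma gave 0 higher and 4 lower (17.4%) at an unadjusted p under 0.05, near the 14.1% of all genes that were lower. The largest rises were those of Ccl5, a chemokine of T cells and monocytes (2.62 ± 0.26 against outside-lesion and 2.52 ± 0.28 against wild type), Ifitm1, a relative of Ifitm3 (2.54 ± 0.25 and 2.08 ± 0.27), and Ifi30, a lysosomal thiol reductase of antigen-presenting cells (2.36 ± 0.20 and 2.14 ± 0.21). Several of these genes are also made by leukocytes without interferon, and the part of leukocyte number in these rises was not tested.

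Ptprc, the pan-leukocyte gene CD45, was higher in ATLO by 2.69 ± 0.31 against outside-lesion and 2.62 ± 0.34 against wild type. Over all genes 19.8% were called higher and 14.9% lower against outside-lesion, the shares to set beside the counts below. Against wild type they were 13.4% and 14.1%. Against outside-lesion, 6 of 7 macrophage markers rose, with Cd68 at 1.88 ± 0.24 and Adgre1 at 1.09 ± 0.18, as did 4 of 4 T cell markers (Cd3e, 2.25 ± 0.52) and 4 of 4 B cell markers (Ms4a1, 2.88 ± 0.86). Summed marker signals on ATLO, outside-lesion and wild-type arrays were 29400 to 44670, 12060 to 21740 and 15550 to 21800 for macrophages. For T cells, with Cd4 and Cd8a, which did not pass the filter, they were 2908 to 5711, 382.2 to 612.6 and 502.7 to 1151. For B cells they were 3358 to 13770, 484.3 to 1447 and 496.3 to 5039. Natural killer cell markers rose in 2 of 3 cases, and Ncr1, their defining receptor, did not pass the filter. Of fibroblast markers 4 of 5 rose (Col1a1, 1.23 ± 0.36) and Dcn did not (0.14 ± 0.27), while 4 of 4 adipocyte markers fell (Adipoq, -1.43 ± 0.22). Endothelial markers fell in 3 of 4 cases against outside-lesion and smooth muscle markers in 1 of 4. Against wild type these counts were 2 of 4 and 3 of 4. Of plasmacytoid dendritic cell markers 2 of 2 tested rose, both against outside-lesion and against wild type: Ccr9, a chemokine receptor, by 1.92 ± 0.37 and 1.41 ± 0.40, and Ly6d, also a gene of B-lineage cells, by 3.00 ± 0.49 and 3.04 ± 0.53. With Klk1, which did not pass the filter, their summed signal was 928.1 to 3818 on ATLO arrays and 244.6 to 393 on outside-lesion arrays. On wild-type arrays it was 170.2 to 558.3. Ly6d alone gave 3433.5 on ATLO replicate 2, the array with the highest B cell sum. No probe set carried the symbol of Siglech, another gene of these cells, alone. Neutrophil markers rose in 2 of 3 cases in both comparisons, with sums of 1575 to 2972 on ATLO arrays, 336.1 to 1573 on outside-lesion arrays and 302.9 to 1230 on wild-type arrays. The part of these cells in the changes of interferon-induced genes was not tested.

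The promoter windows were compared with those of all genes as a description. RefSeq windows were found for 29 of the 36 members, not for Mx1, Mx2, Oas2, Usp18, Dhx58, Parp14 or Iigp1. The response element core occurred on either strand in 12 of 29 members (41.4%), 7 of 20 type I-type (35.0%) and 5 of 9 gamma-type (55.6%), against 936 of 27025 genes with a window (3.46%). The gamma-activated site, whose letters read alike on both strands, occurred in 9 of 29 members (31.0%), 6 of 20 type I-type and 3 of 9 gamma-type, against 2197 genes (8.13%). Both motifs occurred in 3 members and neither in 11. Against outside-lesion, 6 of 11 tested genes with the core and 9 of 15 tested genes without it rose. For the gamma-activated site these counts were 6 of 9 and 9 of 17.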

How the data were processed

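The authors deposited 1 signal intensity per probe set and array on a linear scale, made with GCOS 1.4 per the submitters' processing notes. The deposited intensities had a mean of 500.2 to 500.3 on each array after trimming 2% at each end, so the authors had scaled the arrays before deposit. Other summary steps are not given in the sources used here, and since intensities carry no counts, the number of arrays limits the precision.

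From the 22690 probe sets 64 controls were left out. The platform annotation gave 20380 probe sets 1 gene symbol, 691 several and 1555 none. Signals under 35.1, the 20th percentile over the whole table, were set to that floor before log2, which understates folds near it. Probe sets needed 3 or more arrays past the 40th percentile of their array, and 14988 met this. A probe set could pass through the arrays of 1 group alone, as that of Ikbke did through ATLO. Among the called members, Cxcl10, Mx1 and Dhx58 lay under the median signal of every array outside ATLO, so they may have done so too. The same was true of Zbp1, among other genes of the pathway and marker lists. Using limma 3.58.1 (R 4.3.3), 1 mean per group was fitted over the 11 arrays together (lmFit, eBayes with an intensity trend), and every adjusted p is limma's, by Benjamini-Hochberg over the probe sets tested. The fit was checked on simulated data. The probe set with the highest mean log2 signal stood for a gene, and a list was described by counts and medians.

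The members, classes and lists were chosen with earlier results of these data known. Values in every array were to be given for the 4 called genes of each class with the largest change, the 2 largest uncalled changes, and genes whose probe sets disagreed, and up to 3 called genes per pathway list and the defining cell markers were to be named. Other members are named to account for the set. Promoter windows, 250 bases before RefSeq starts (GRCm38.p6), were searched in Python 3.11.15. Alternatives were other scalings, floors and filters, no trend, array weights, the actin ratio as covariate, the replicate number as a block, only the compared groups, averaged probe sets and each array left out in turn.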

Additional observations from a re-analysis of the deposited data

Results flagged for a closer look

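Iigp1 in ATLO replicate 3 had a signal of 1150.6, apart from the other 3 ATLO arrays (1758.7 to 1918), with a gap of 0.83 of the group's whole range on the log2 scale. Ifi47 in outside-lesion replicate 1 had a signal of 733.1, apart from the other 3 outside-lesion arrays (368.6 to 397.1), with a gap of 0.892 of the range on the log2 scale. Of 64 gene and group combinations examined these 2 lay far enough from the rest, where chance alone marks about 1 in 20.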

How the results depend on the processing

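Under none of the alternatives run did a called member change direction. With the actin ratio as a covariate, 1290 of 14988 probe sets were called higher in ATLO than outside-lesion, in place of 2688. In either direction 17% were called in place of 31.9%. Of the members 12 (4 gamma-type) were called higher in place of 19 (9 gamma-type). Isg20, Dhx58, Cxcl9, Gbp3, Igtp, Irgm1 and Iigp1 lost their calls. Their log2 changes with the covariate (without it) were 0.53 (0.93) for Isg20, 1.13 (1.27) for Dhx58, 0.67 (1.33) for Cxcl9, 0.40 (0.77) for Gbp3, 0.76 (0.77) for Igtp, 0.34 (0.50) for Irgm1 and 0.46 (0.75) for Iigp1. Leaving out Cxcl10, Irf1 and Gbp2 left 2 gamma-type calls against wild type. In outside-lesion against wild type, where no member was called lower, array weights gave 3 (1 type I-type, 2 gamma-type: Ifi35, Cxcl10 and Ifi47) and the stricter filter 1 type I-type gene (Ifi35, adjusted p = 0.0494). Fewer probe sets were tested under that filter, and the cause of these calls was not tested.

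The deviations of same-numbered arrays of different groups had correlations of -0.178 to 0.273 (median 0.098), and those of differently numbered arrays -0.198 to 0.238 (median -0.035). Between ATLO and outside-lesion arrays alone, the same-numbered pairs had 0.142, 0.075, 0.04 and 0.153, and differently numbered ones -0.198 to 0.152. Not every same-numbered pair was over 0.1 and no label says what a number marks, so the samples were not treated as paired. With the replicate number as a block, 20 members were higher against outside-lesion and 11 against wild type, and 1 type I-type gene was lower in outside-lesion than in wild type (Ifit1, -1.28, adjusted p = 0.0466).

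Leaving out each array in turn gave 17 to 19 members higher in ATLO against outside-lesion (type I-type 9 to 12, gamma-type 7 to 9) and 9 to 13 against wild type (type I-type 4 to 8, with 4 without wild-type replicate 2, and gamma-type 4 to 6). For outside-lesion against wild type it gave 0 to 1 lower in each class: Ifi35 without ATLO replicate 2 and Ifi47 without outside-lesion replicate 1. Calls lost in at least 1 such fit were those of Gbp3, Ifit1 and Irgm1 against outside-lesion and of Dhx58, Ifitm3, Irf9, Isg20 and Parp14 against wild type.

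Equal array medians moved the median of all probe sets between ATLO and outside-lesion to -0.015, where the deposited scale gave 0.10, and that of the members was 0.64. Over all probe sets the calls were then 1985 higher and 2517 lower, where the deposited scale gave 2688 and 2089. For outside-lesion against wild type they were 557 and 81, and 301 and 135 after quantile normalization, where the deposited scale gave 258 and 231.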

Other observations

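Isg15, whose product is the ubiquitin-like protein that Usp18 removes, was read only by a probe set annotated to both Isg15 and Gm9706. Its signals were 144.8, 126.5, 210.3 and 268.5 on ATLO arrays, 162.4, 103.7, 116.4 and 194.8 on outside-lesion arrays, and 166.8, 160 and 173.7 on wild-type arrays. All 3 groups overlapped. The log2 changes were 0.36 ± 0.28 for ATLO against outside-lesion (limma adjusted p = 0.358), 0.10 ± 0.30 for ATLO against wild type (adjusted p = 0.827) and -0.25 ± 0.30 for outside-lesion against wild type (adjusted p = 0.644).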
